A study of Mus musculus with 6 samples.

Results

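The transcripts described here belong to 10 mouse genes at the entry, the control point and the exit of glycolysis: the glucose transporters *Slc2a1* and *Slc2a3*, the hexokinases *Hk1* and *Hk2*, the regulatory enzymes *Pfkfb3* and *Pfkfb4*, the lactate dehydrogenases *Ldha* and *Ldhb*, and the lactate carriers *Slc16a1* and *Slc16a3*. The genes were chosen by name, and all 10 were found among the 16381 genes of the deposited table. Bulk RNA sequencing was performed on activated ILC2s (group 2 innate lymphoid cells, lung lymphocytes that secrete type 2 cytokines) from wild type BALB/cJ mice, which the methods describe as females of 6 to 8 weeks. All mice received 0.5 µg of IL-33 intranasally each day for 3 days, lung ILC2s were sorted as live CD45+, lineage-negative cells positive for ST2 and CD127 to a stated purity above 95%, and the cells were kept in culture for 24 h in the presence of melatonin (250 µM) or DMSO (vehicle). Each group held 3 samples, and neither the labels nor the methods say whether these came from separate animals or pools, so the p-values measure the spread between these samples only.

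Glucose enters lymphocytes through facilitative carriers of the GLUT family, GLUT1 (*Slc2a1*) and GLUT3 (*Slc2a3*) among them, and hexokinases trap it as glucose-6-phosphate. PFKFB enzymes set the level of fructose-2,6-bisphosphate, the activator of phosphofructokinase. At the far end, lactate dehydrogenase converts pyruvate to lactate, which leaves the cell with a proton through the monocarboxylate carriers MCT1 (*Slc16a1*) and MCT4 (*Slc16a3*). Activated lymphocytes are known for high glycolysis with lactate export.

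Each library held 17056266 to 20511708 estimated counts. Values are given as normalized counts, the estimated counts of a gene over the size factor of its sample. The ILC2 transcripts *Gata3*, *Il1rl1*, *Rora* and *Ptprc* were abundant in both groups, and *Gata3* was at 19365 normalized counts in vehicle and 20469 in melatonin. Of 11 ILC2 markers 7 were lower with melatonin and 2 were higher, with *Klrg1* at a log2 fold change of −2.16 and *Thy1* at −2.88. In bulk RNA, fewer cells of a type and less RNA per cell cannot be told apart. Among 32 markers of other cell types, 12 were not listed, including *Cd4*, *Cd8a* and the 3 fibroblast markers. The summed level of the 20 listed ones was between 3781 and 5081 in vehicle and between 2080 and 2363 in melatonin, and for the 6 myeloid markers between 1452 and 1649 against 364 to 845. Of the 17 tested, 11 were lower with melatonin, 5 were not called and *Epcam* was higher. The summed levels of the epithelial, the erythroid, and the mast cell and basophil markers overlapped between the groups. Within the epithelial sum the markers moved apart, with *Epcam* at a log2 fold change of 0.72 and *Sftpc* and *Scgb1a1* called lower at −5.07 and −6.70. The part of these markers in the results was not tested. Y-linked transcripts were present in the 3 vehicle samples and melatonin replicate 1 and at 0 in melatonin replicates 2 and 3, although the methods name females only. The presence of Y-linked transcripts thus partly followed the treatment. None of the 10 genes lies on a sex chromosome, but a part of sex in their levels was not tested. The libraries carry the numbers 20 to 22 for melatonin and 32 to 34 for vehicle in the labels, so a batch that follows them and the treatment cannot be told apart.

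With melatonin, 6 of the 10 genes were lower and none was higher at an adjusted p under 0.05 (limma on log2 of the normalized count plus 1, adjusted over all 14419 genes tested). The background was large, since 24.7% of all genes tested were lower and 24.5% were higher, 49.2% in all. The genes that fell were *Hk2*, *Ldha*, *Slc16a1*, *Slc16a3*, *Slc2a1* and *Slc2a3*, and the 4 that were not called were *Hk1*, *Ldhb*, *Pfkfb3* and *Pfkfb4*. By unadjusted p under 0.05 the count of higher genes was likewise 0. The median log2 fold change of the 10 genes was −0.30, beside −0.00 over all genes tested. For the same 6 genes every melatonin sample lay below every vehicle sample, a pattern that 30.3% of all genes tested showed. With 3 samples a group, an exact permutation test (two-sided) has 0.1 as its smallest p, so the calls rest on the fit across all genes. Below, SE stands for standard error.

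**Figure D1:**
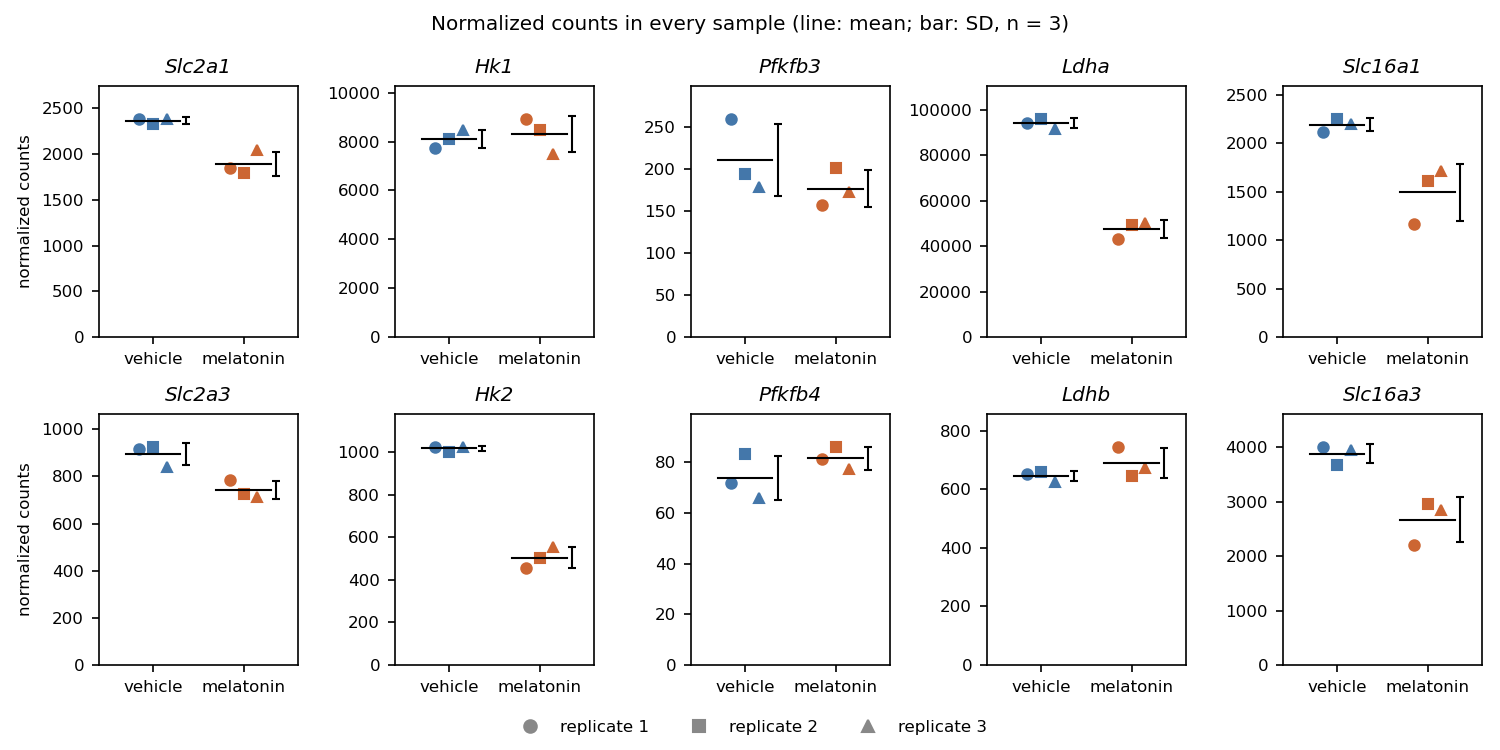
Normalized counts (vertical axis, from 0) of the 10 genes in the vehicle and melatonin samples, with marker shapes for the replicate numbers, a line at the mean and a bar for the SD (n = 3). *Ldha* and *Hk2* lie near 47758 and 504 with melatonin against 94077 and 1018 with vehicle, while the groups of *Hk1*, *Ldhb*, *Pfkfb3* and *Pfkfb4* overlap.

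Because several of these genes fell together, their promoters were read from the GRCm39 reference genome (of C57BL/6J, not BALB/c) as the 250 bases before the start of the canonical GENCODE M39 transcript. The letters ACGTG, a form of the core that HIF-1 recognizes in hypoxia response elements, were sought on both strands. Other forms of that core were not sought. CACGTG, the E-box bound by MYC and by clock factors, was sought as well and holds ACGTG on both strands. The windows of *Ldha*, *Hk2* and *Slc16a1* are shown as the 3 that hold ACGTG. Each is written 5′ to 3′ on the strand of the gene, with ACGTG or its reverse complement in capitals.
Ldha (chr7:46495013-46495262, plus strand): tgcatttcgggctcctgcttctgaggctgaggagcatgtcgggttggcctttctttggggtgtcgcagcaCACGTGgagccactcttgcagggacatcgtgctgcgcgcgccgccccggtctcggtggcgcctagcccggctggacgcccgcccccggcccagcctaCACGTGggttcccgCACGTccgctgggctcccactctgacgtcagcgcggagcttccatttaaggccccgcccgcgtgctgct
Hk2 (chr6:82751453-82751702, minus strand): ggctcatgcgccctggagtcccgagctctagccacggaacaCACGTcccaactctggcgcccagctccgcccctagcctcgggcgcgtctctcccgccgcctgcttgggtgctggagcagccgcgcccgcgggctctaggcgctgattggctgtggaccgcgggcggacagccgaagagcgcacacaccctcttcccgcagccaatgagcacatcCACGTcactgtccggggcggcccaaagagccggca
Slc16a1 (chr3:104545561-104545810, plus strand): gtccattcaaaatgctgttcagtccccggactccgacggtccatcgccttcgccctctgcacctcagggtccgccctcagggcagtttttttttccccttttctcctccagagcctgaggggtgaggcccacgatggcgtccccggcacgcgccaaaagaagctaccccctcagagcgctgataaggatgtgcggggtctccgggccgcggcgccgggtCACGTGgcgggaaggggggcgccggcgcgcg

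ACGTG was present in 3 of the 10 windows, beside 21.2% of the 12064 protein-coding promoters of tested genes, and CACGTG was present in 2 of 10, in *Ldha* and *Slc16a1*, beside 7.8%. *Ldha* held 2 E-boxes, one from base 180 to base 175 and one from base 83 to base 78 before the start, and a further ACGTG match from base 69 to base 65. In *Hk2* the ACGTG matches lay from base 209 to base 205 and from base 35 to base 31, and in *Slc16a1* the E-box lay from base 31 to base 26. The antioxidant response element core TGACNNNGC, bound by NRF2, was found in 1 of 10 windows, that of *Slc16a1*, where it overlaps the E-box, beside 10.7% of all promoters. The GC box GGGCGG was found in 7 of 10, beside 49.8%. *Slc2a1*, *Slc2a3* and *Slc16a3*, which also fell, held no ACGTG in this window. A match describes the sequence only, and no binding was measured here.

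**Figure D2:**
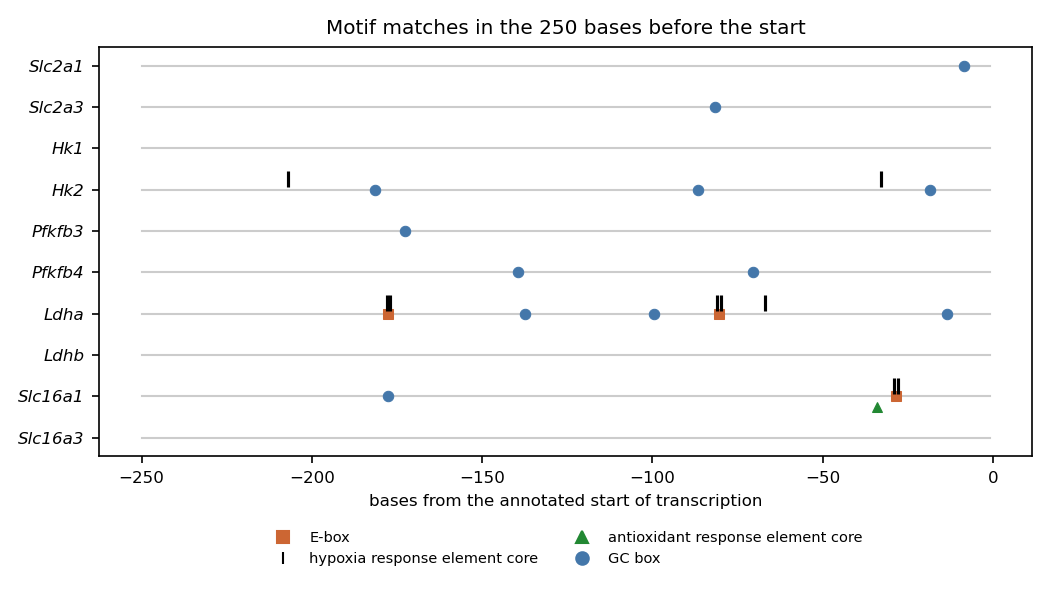
Positions of motif matches on either strand (horizontal axis, bases from the annotated start) in the 250 bases before each of the 10 genes, with a marker for each motif at its middle. *Ldha* holds 2 E-boxes and 3 GC boxes, and *Hk1*, *Ldhb* and *Slc16a3* hold no match to the motifs sought.

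Transcripts of both glucose carriers among the 10 genes were lower with melatonin. *Slc2a1* (ENSMUSG00000028645, chromosome 4 of GRCm39, 118965908 to 118996365) encodes GLUT1, the main basal glucose carrier of lymphocytes. Its normalized counts were 2385, 2325 and 2385 in vehicle replicates 1, 2 and 3 and 1843, 1796 and 2041 in melatonin replicates 1, 2 and 3. The vehicle samples lay close together and every melatonin sample was below them. The mean fell from 2365 ± 34.8 (SD, n = 3) to 1893 ± 130, or −0.32 log2 units (SE 0.08, adjusted p by limma 0.00908). Its mean fell by 19.9%, and it kept its call under every alternative fit run at the threshold of 0.05, with log2 fold changes between −0.41 and −0.22.

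*Slc2a3* (ENSMUSG00000003153, chromosome 6, 122704768 to 122778599) encodes GLUT3, a carrier of high affinity. It was at 918, 927 and 841 normalized counts in vehicle and at 786, 727 and 714 in melatonin. The groups did not overlap, but the gap between vehicle replicate 3 and melatonin replicate 1 was narrow. The shift was −0.27 log2 units (SE 0.09, adjusted p by limma 0.0339). Its call was lost in 8 of 20 alternative fits, among them those without vehicle replicate 1 (limma adjusted p = 0.112), vehicle replicate 2 (0.121), melatonin replicate 2 (0.0828) or melatonin replicate 3 (0.0738), over a range of adjusted p from 0.00506 to 0.169. *Gm4482*, a gene whose annotated span overlaps that of *Slc2a3*, moved the other way, from 260 ± 4.69 to 443 ± 31.2 normalized counts. Per kilobase of the longest annotated transcript, *Slc2a1* was at 3.72 ± 0.24 (SD, n = 3) times the level of *Slc2a3* in vehicle and 3.60 ± 0.38 times in melatonin. The multiple depended on the transcript length assumed, and by the canonical transcript it was 2.36 ± 0.15 in vehicle and 2.28 ± 0.24 in melatonin. GLUT1 transcripts were thus the more abundant of the pair in both groups.

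The hexokinases split. *Hk2* (ENSMUSG00000000628, chromosome 6, 82699740 to 82751469), the hexokinase that rises when lymphocytes are activated, was at 1025, 1003 and 1027 normalized counts in vehicle and at 458, 501 and 554 in melatonin. The vehicle samples lay close together, and the highest melatonin sample was far below them. The mean fell from 1018 ± 13.1 to 504 ± 48.2, or −1.02 log2 units (SE 0.10, adjusted p by limma 0.000124) and the largest fall among the 10 genes. Of all genes tested, 11.6% had a lower log2 fold change.

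*Hk1* (ENSMUSG00000037012, chromosome 10, 62104621 to 62215687), the housekeeping hexokinase that docks on mitochondria, was at 7750, 8109 and 8489 normalized counts in vehicle and 8930, 8481 and 7496 in melatonin. The melatonin values spanned both sides of the vehicle values. Its log2 fold change was 0.03 (95% interval −0.17 to 0.23, limma adjusted p = 0.794), and the sign changed among the alternatives, which ran from −0.06 to 0.15. Within each sample, the log2 ratio of *Hk2* to *Hk1* was −2.92, −3.01 and −3.05 in vehicle and −4.28, −4.08 and −3.76 in melatonin. The ratio was lower by 1.05 on the log2 scale and the groups were apart, with an exact two-sided permutation p of 0.1, the smallest that 3 samples against 3 can give, and 0.25 after Benjamini-Hochberg adjustment over the 5 ratios tested. *Hk1* was the dominant hexokinase throughout. Per kilobase of the longest transcript, *Hk2* supplied 6.65% ± 0.29 (SD, n = 3) of the sum of *Hk1* and *Hk2* in vehicle and 3.36% ± 0.61 in melatonin. The share depended on the transcript length assumed. In vehicle, *Hk2* was at 0.071 times the level of *Hk1* by the longest transcript and at 0.047 times by the mean protein-coding transcript.

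**Figure D3:**
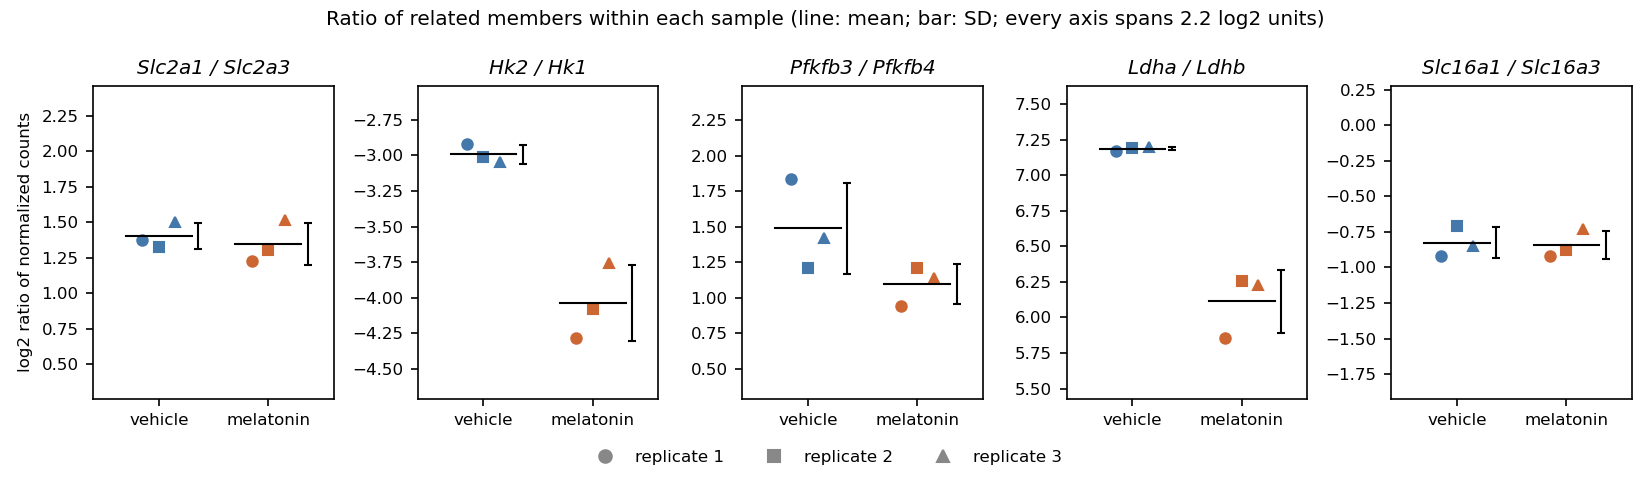
Log2 ratio of normalized counts of 2 related genes within each sample (vertical axes, each spanning 2.2 log2 units), with marker shapes for the replicate numbers, a line at the mean and a bar for the SD. The groups are apart for *Hk2* to *Hk1* and *Ldha* to *Ldhb*, by −1.05 and −1.07 between the group means, and overlap for the other pairs.

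Both genes of the control point were low in abundance and neither was called. *Pfkfb3* (ENSMUSG00000026773, chromosome 2, 11476244 to 11558888) encodes the isoform with the strongest bias towards making fructose-2,6-bisphosphate. It was at 259, 194 and 178 normalized counts in vehicle and 157, 201 and 172 in melatonin. Vehicle replicate 1 stood above the other 5 samples, which overlapped. The log2 fold change was −0.24 (95% interval −0.65 to 0.17, limma adjusted p = 0.288), and without vehicle replicate 1 it was −0.08.

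*Pfkfb4* (ENSMUSG00000025648, chromosome 9, 108820832 to 108862847), a second isoform of the same bifunctional enzyme, was at 71.9, 83.4 and 66.1 in vehicle and 81.2, 86.3 and 77.4 in melatonin. The groups overlapped, with a log2 fold change of 0.15 (95% interval −0.28 to 0.57, limma adjusted p = 0.533). The interval of *Pfkfb3* is wide enough to hold a fall of the size seen for *Slc2a1*. The log2 ratio of *Pfkfb3* to *Pfkfb4* differed by −0.39 between the groups (exact two-sided permutation p = 0.2, adjusted 0.333), and by −0.22 without vehicle replicate 1.

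Lactate dehydrogenase gave the largest change in absolute terms. *Ldha* (ENSMUSG00000063229, chromosome 7, 46490899 to 46505061) encodes the A subunit, which favours the step from pyruvate to lactate. In vehicle it ranked 5 among all genes tested by normalized count, and 14 per kilobase of transcript. Its values were 94333, 96146 and 91753 normalized counts in vehicle and 43304, 49510 and 50460 in melatonin. No melatonin sample came near the vehicle samples, and melatonin replicate 1 was the lowest. The mean fell from 94077 ± 2208 (SD, n = 3) to 47758 ± 3886, or −0.98 log2 units (SE 0.09, adjusted p by limma 0.00012). Per kilobase it still ranked 32 among all genes in melatonin.

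*Ldhb* (ENSMUSG00000030246, chromosome 6, 142435672 to 142454586) encodes the B subunit, the form of oxidative tissues such as heart. Its normalized counts were 653, 658 and 625 in vehicle and 746, 646 and 673 in melatonin. Only melatonin replicates 1 and 3 were above all vehicle samples. The log2 fold change was 0.09 (95% interval −0.12 to 0.31, limma adjusted p = 0.446). The log2 ratio of *Ldha* to *Ldhb* was 7.17, 7.19 and 7.20 in vehicle and 5.86, 6.26 and 6.23 in melatonin, a difference of −1.07 (exact two-sided permutation p = 0.1, the smallest possible, and adjusted 0.25). Per kilobase, *Ldha* was still the main form by far, at 99.2% ± 0.007 of the sum of *Ldha* and *Ldhb* in vehicle and 98.3% ± 0.27 in melatonin.

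Reads of the lactate dehydrogenases can be shared with similar transcripts. Transcripts of 16 other genes matched the canonical *Ldha* transcript at 90% identity or more over at least 200 bases, and the 8 of them that were listed summed to between 0.93% and 1.43% of the *Ldha* value in a sample. *Ldha-ps2*, the most abundant named pseudogene among them, was at 300 ± 30.1 normalized counts in vehicle and 176 ± 53.3 in melatonin. *Ldhb-ps* was between 15.0% and 17.5% of the value of *Ldhb*, so the level of *Ldhb* is the less certain of the pair.

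Both lactate carriers fell. *Slc16a1* (ENSMUSG00000032902, chromosome 3, 104545811 to 104565780) encodes MCT1, which carries lactate in either direction. It was at 2119, 2251 and 2193 normalized counts in vehicle and 1162, 1609 and 1716 in melatonin. The melatonin samples were all lower and more widely spread, with replicate 1 well below the other 2. The mean fell from 2188 ± 66.5 to 1496 ± 294, or −0.57 log2 units (SE 0.14, adjusted p by limma 0.00867). It was −0.40 without melatonin replicate 1, and −0.91 when melatonin replicate 1 was the only melatonin library kept, as the only one with Y-linked transcripts.

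*Slc16a3* (ENSMUSG00000025161, chromosome 11, 120838846 to 120851694) encodes MCT4, the carrier of lactate export in highly glycolytic cells. Its values were 4014, 3679 and 3958 normalized counts in vehicle and 2196, 2957 and 2853 in melatonin. The groups were again apart, with melatonin replicate 1 the lowest. The mean fell from 3884 ± 179 to 2669 ± 412, or −0.55 log2 units (SE 0.12, adjusted p by limma 0.00445). Part of the *Slc16a3* transcript overlaps *Csnk1d*, which rose from 3968 ± 138 to 5525 ± 502 normalized counts, and without strand, whose use in counting is not given in the sources used here, reads from the shared stretch cannot be told apart. The log2 ratio of *Slc16a1* to *Slc16a3* differed by −0.02 between the groups (exact two-sided permutation p = 0.8, adjusted 0.8), with overlapping samples, and by −0.21 after GC correction (exact p = 0.2). Which carrier was the more abundant depended on the transcript length assumed. Per kilobase of the longest transcript, *Slc16a1* made up 52.4% ± 1.88 of the sum of both in vehicle. Per kilobase of the mean protein-coding transcript it was at 0.606 times the level of *Slc16a3*.

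Among the melatonin samples, replicate 1 was the lowest for *Hk2*, *Ldha*, *Slc16a1*, *Slc16a3* and *Pfkfb3* and the highest for *Hk1*, *Ldhb* and *Slc2a3*. It also had the lowest summed level of myeloid markers, 364 normalized counts, the lowest sum of ILC2 markers, 126820, and the highest level of the T cell marker *Cd3e*, 117 against 40.4 and 39.2. Single ILC2 markers went both ways among the melatonin samples. *Il5*, *Il2ra*, *Il13*, *Areg* and *Thy1* were lowest in replicate 1, while *Gata3*, *Il1rl1*, *Rora*, *Il7r*, *Ptprc* and *Klrg1* were highest in it. The part of these in the spread was not tested. Without it, the log2 fold changes of *Hk2*, *Ldha* and *Slc16a3* were −0.95, −0.91 and −0.42. All 6 genes that fell were still called without it.

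**Figure D4:**
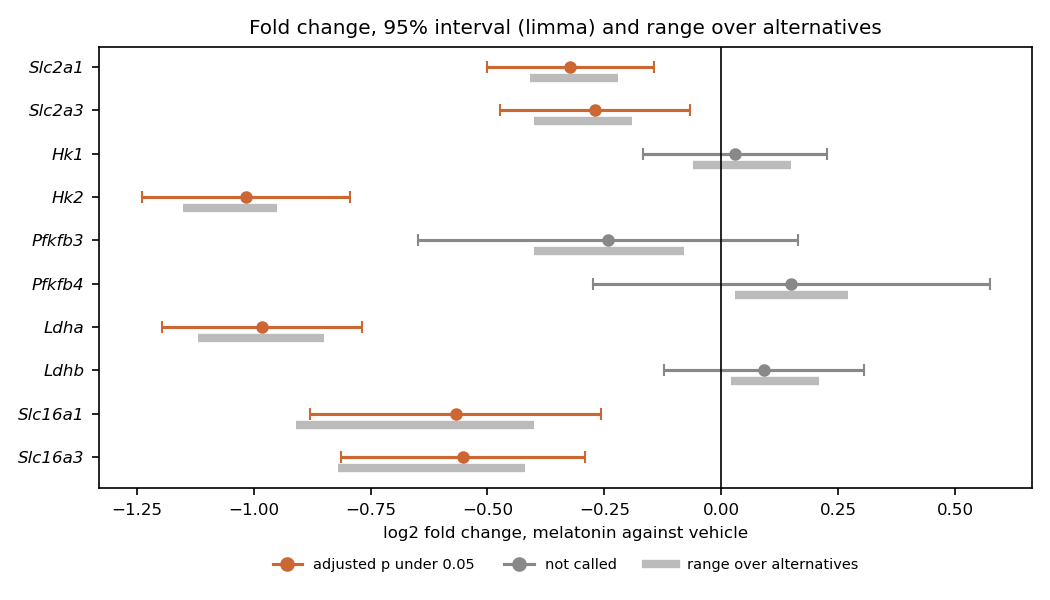
Log2 fold change of melatonin against vehicle (horizontal axis) for the 10 genes, with the 95% interval from limma and, as a grey bar, the range over the alternative fits. *Hk2* and *Ldha* lie at −1.02 and −0.98, *Slc16a1* and *Slc16a3* at −0.57 and −0.55, *Slc2a1* and *Slc2a3* at −0.32 and −0.27, and the intervals of the other 4 cross 0.

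The enzymes between these ends were followed in a list of 14 core glycolysis genes, of which 8 were lower, 2 were higher and 4 were not called, with a median log2 fold change of −0.34, beside 24.7% lower and 24.5% higher over all genes tested. *Gapdh*, *Tpi1*, *Pgk1* and *Pgam1* had log2 fold changes of −1.13, −0.93, −0.77 and −0.51 (limma adjusted p between 0.000162 and 0.00116). *Gpi1*, which converts glucose-6-phosphate to fructose-6-phosphate, and *Eno1*, the main enolase, followed at −0.39 and −0.44. *Eno3*, the muscle enolase, was at −1.77 with only 112 ± 15.9 normalized counts in vehicle and is named after its value was seen. The final enzyme before lactate dehydrogenase, pyruvate kinase *Pkm*, was not called (log2 fold change −0.08, 95% interval −0.29 to 0.14), and *Aldoa* at −0.16 was not called either. The *Aldoa* groups did not overlap, and it was called lower when melatonin replicate 1 was left out (limma adjusted p = 0.0179). The higher genes were *Eno2* at 0.87, which lost its call without vehicle replicate 2 (limma adjusted p = 0.0626), and *Pfkl* at 0.24, which lost its call without vehicle replicate 1 or 2. Another phosphofructokinase, *Pfkp*, was lower at −0.30 (limma adjusted p = 0.0143). This call did not hold after quantile normalization (adjusted p = 0.102), nor when vehicle replicate 1 or 2 was left out.

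**Figure D5:**
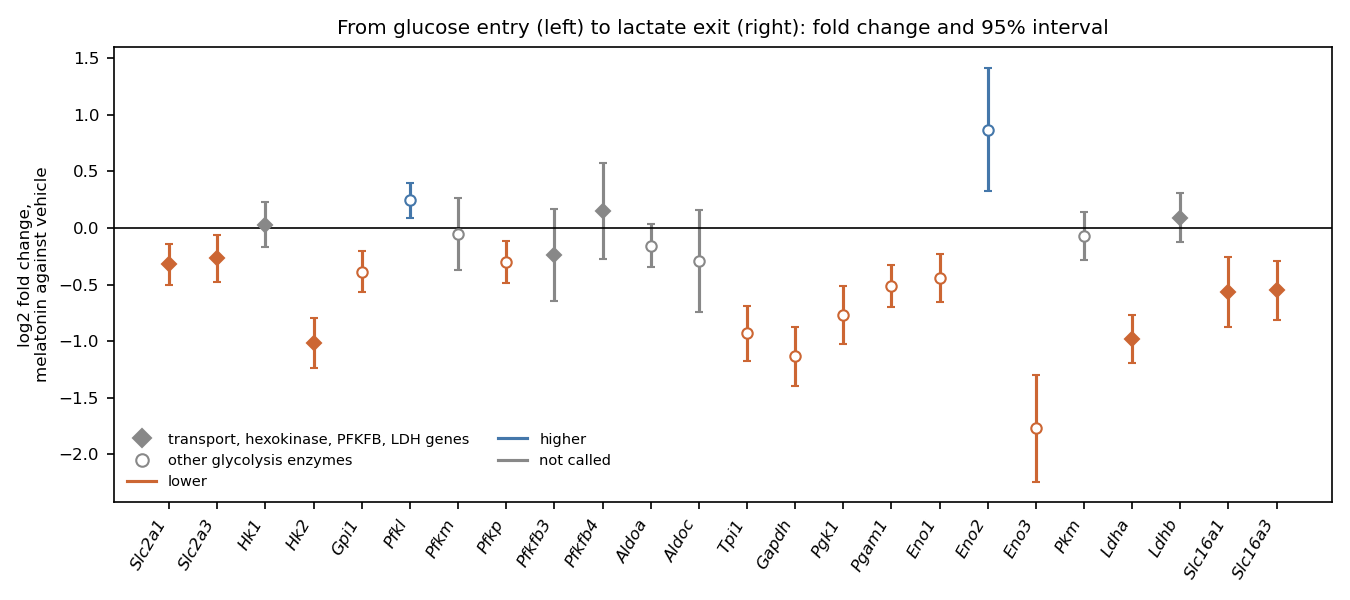
Log2 fold change with 95% interval from limma (vertical axis) for the 10 genes (filled diamonds) and 14 core glycolysis enzymes (open circles), ordered from glucose entry to lactate exit. Falls appear at the entry, in the middle and at the exit, with *Gapdh* at −1.13 and *Hk2* at −1.02, while *Hk1*, *Aldoa*, *Pkm* and *Ldhb* are not called.

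Paralogues of the 10 genes, together with genes of related function such as *Ldhd* and *Adpgk*, were followed as a list of 30 relatives. Of these, 19 were in the table and 15 had enough counts to be tested. Among them 3 rose, 3 fell and 9 did not pass the test, with a median log2 fold change of −0.25, and neither share of 15 exceeds that of all genes tested, 24.5% higher and 24.7% lower. *Ldhd* encodes the mitochondrial dehydrogenase of D-lactate. It was at 2286, 2002 and 1943 normalized counts in vehicle and at 170, 183 and 150 in melatonin. Every melatonin sample was far below vehicle, with a shift of −3.63 log2 units (SE 0.11, adjusted p by limma 6e-07). *Slc2a8*, which encodes GLUT8, a glucose carrier of intracellular membranes, rose instead. Its values were 678, 613 and 667 in vehicle and 2004, 1431 and 1331 in melatonin, a shift of 1.26 log2 units (SE 0.15, adjusted p by limma 0.00028).

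*Adpgk*, an ADP-dependent glucokinase of the endoplasmic reticulum that makes the same product as the hexokinases, also rose. It was at 1008, 1057 and 984 normalized counts in vehicle and 3197, 2334 and 2167 in melatonin, a shift of 1.31 log2 units (SE 0.14, adjusted p by limma 0.000173). *Slc16a6*, a carrier of ketone bodies, fell by 0.87 on the log2 scale from 881 ± 35.7 to 505 ± 169 normalized counts, a call that was lost in limma without the trend (adjusted p = 0.0524). Its log2 fold change was −0.55 without melatonin replicate 1 and −1.50 among the libraries with Y-linked transcripts. Named after their values were seen, *Hk3* was at 29.0 ± 7.24 in vehicle and 2.25 ± 1.98 in melatonin, and *Slc16a9* was at 3 counts or fewer in every vehicle sample and at least 3.35-fold higher in melatonin, taking 3 counts per library as the floor. The limma call of *Slc16a9* was lost without vehicle replicate 1, vehicle replicate 2 or melatonin replicate 2, where the adjusted p reached 0.0602. *Slc2a6*, *Slc2a9*, *Slc16a10* and *Slc16a13* were not called, with log2 fold changes between −0.35 and 0.29. Without melatonin replicate 1, *Slc2a9* and *Slc16a13* were called lower at −0.62 and −0.53 (limma adjusted p = 0.0106 and 0.0233), and without melatonin replicate 2 *Slc2a9* was at −0.01. Among the libraries with Y-linked transcripts, *Slc2a9* turned to 0.41 and *Slc16a13* was at 0.00. *Slc2a6*, whose groups did not overlap, was called higher after GC correction at 0.38 (limma adjusted p = 0.0305). The 11 relatives not listed, *Slc2a2*, *Hkdc1* and *Ldhc* among them, were not analysed here.

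A further list held 13 partners and regulators of glucose uptake, glucose phosphorylation and lactate export, of which 1 was higher, 4 were lower and 8 were not called, beside 24.5% higher and 24.7% lower over all genes tested. *Bsg* encodes basigin, the chaperone that brings MCT1 and MCT4 to the cell surface. In contrast to both carriers it rose, from 11013 ± 248 (SD, n = 3) to 13679 ± 540 normalized counts, which is 0.31 log2 units (SE 0.07, adjusted p by limma 0.00704). *Emb*, the related chaperone embigin, was at 0.01 (95% interval −0.17 to 0.18). *G6pc3*, a phosphatase that removes the phosphate from glucose-6-phosphate, fell by 0.72 on the log2 scale (limma adjusted p = 0.000792).

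*Txnip* and *Arrdc4*, glucose-responsive genes whose proteins restrain glucose uptake, were lower at −0.59 and −0.86. *Txnip* was at 2065, 1874 and 2030 normalized counts in vehicle and at 1941, 974 and 1208 in melatonin, so melatonin replicate 1 lay among the vehicle samples. Its call (limma adjusted p = 0.0431) was lost in 8 of 20 alternative fits, where the adjusted p reached 0.76, and among the libraries with Y-linked transcripts the log2 fold change was −0.03. *Arrdc4* lost its call at the threshold of 0.05 in that comparison alone of the 20, at −0.36. *Mlx*, the partner of the glucose sensor that drives both genes, was at −0.27 and lost its call in 5 of 20 alternative fits. *Mlxip*, the gene of that sensor, is named after its value was seen. It went the other way at 0.22 and was not called (limma adjusted p = 0.0878), although its groups did not overlap. After GC correction, or without melatonin replicate 2, it was called higher.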

How the data were processed

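The series holds mRNA profiles of 3 melatonin-treated and 3 DMSO-treated samples of sorted mouse lung ILC2s. Within Partek Flow, the authors trimmed the reads by quality, used STAR for alignment (mm39), assigned reads to GENCODE M33 with an E/M algorithm, left out genes with few counts and normalized by median ratios as in DESeq2. What they deposited is a signal, namely normalized counts, with 64.8% of values above 0 at whole multiples of 1 read (tolerance 0.01), so whole reads were not recovered. The value of 1 read in each sample, taken from the spacing of low values, gave the estimated totals. Libraries of a group differed beyond sampling noise (chi-square at least 6.35 per degree of freedom), so none was counted as a copy.

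Of 16381 genes, 16334 had a name in GENCODE M39, which also gave GRCm39 positions (the same assembly as mm39) and transcript lengths. Differential expression was tested with limma 3.58.1 in R 4.3.3 (mean-variance trend) on log2(value + 1), a scale that understates fold changes of low genes, for the 14419 genes that reached 10 in 1 sample or more, with Benjamini-Hochberg adjustment over all of them and a threshold of 0.05. Ratios were tested with exact permutation tests in scipy 1.17.1. Levels of different genes were compared per kilobase of the longest annotated transcript. The study's own test, DESeq2, needs counts and was not run. Similar transcripts were found with blastn.

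The genes and lists were chosen with earlier results of these data known. Named genes are the 10 genes, up to 4 largest called rises and falls of each list whose mean reached 100 normalized counts, and uncalled relatives of the 10 genes at that level. *Gpi1*, *Pfkp*, *Eno1*, *Pkm*, *Aldoa* and *Emb* were added to follow the pathway. *Eno3*, *Hk3*, *Slc16a9* and *Mlxip* were added after their values were seen, and genes overlapping or resembling the 10 to show shared reads. Alternatives were other pseudocounts, filters, scalings, limma settings, voom, length and GC corrections, the replicate block, each sample left out, libraries with Y-linked transcripts only, and a threshold of 0.01. Canonical transcript lengths were added after the data had been seen.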

Additional observations from a re-analysis of the deposited data

How the results depend on the processing

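Across 21 alternatives, the number of the 10 genes called lower was 6 in 12 and 5 in 9, where *Slc2a3* was the gene lost, and the number called higher was 0 in all. The falls of *Hk2*, *Ldha*, *Slc16a1*, *Slc16a3* and *Slc2a1* kept their direction and call at the threshold of 0.05 in each. At a threshold of 0.01, 2267 genes were lower and 2188 higher over all genes, the core list had 0 higher and the partners 1 lower. With length correction the core list had 1 higher, with sample weights 5 relatives were lower, and with GC correction 2 partners were higher. Among libraries with Y-linked transcripts, where the lone melatonin sample is assumed to vary like the others, 1 partner was lower and 2 were higher. Leaving out single samples, the core list had between 7 and 9 lower and between 0 and 2 higher. The list of relatives then had between 3 and 5 lower and between 2 and 3 higher. The partners had between 2 and 5 lower and between 1 and 2 higher. The cause was not tested.

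The ratio of *Slc2a1* to *Slc2a3* was reversed by GC correction to 0.08 and ran from −0.14 to 0.01 over single samples left out, and that of *Slc16a1* to *Slc16a3* was −0.21 with GC correction and ran from −0.07 to 0.04, and that of *Pfkfb3* to *Pfkfb4* ran from −0.53 to −0.22; none can reach a p under 0.1. Per kilobase of the mean protein-coding transcript, *Slc2a1* was 3.04 times *Slc2a3*, *Hk2* 0.047 times *Hk1*, *Ldha* 131 times *Ldhb* and *Slc16a1* 0.606 times *Slc16a3* in vehicle, and by the canonical transcript *Slc2a1* was 2.36 times, *Ldha* 140 times, *Slc16a1* 0.577 times and *Pfkfb3* 1.78 times its relative.

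Same-numbered samples did not deviate together, with correlations of −0.11, 0.14 and −0.19 over 9990 genes. Those of differently numbered samples ran from −0.19 to 0.31, the highest for vehicle replicate 1 with melatonin replicate 3. With 3 samples a group, these values cannot exclude a pairing, and the main fit used none. With the replicate block, 5 of the 10 genes were lower, and 3278 genes were lower and 3160 higher over all genes.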

Other observations

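Over the 6 samples, the genes whose log2 values were most like those of *Hk2*, among 9989 genes whose mean reached 100 normalized counts, were *Chsy1*, *Bri3bp* and *Mrps18b*, with Pearson r of 0.9998, 0.9996 and 0.9995 and log2 fold changes of −0.90, −1.10 and −1.10. The 2 groups dominate these values, since 20.3% of the genes had an r above 0.9 with *Hk2*. *Pfkfb4* had the largest positive log2 fold change among the 10, although it was not called. Most like it were *Ermard*, *Pdhb* and *Cdc25c*, with r of 0.995, 0.990 and 0.987, and 0.6% of 9990 genes were above 0.9. These values describe 6 libraries and carry no test.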
